A study of Mus musculus with 6 samples.

Results

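The activin and inhibin subunits and the follistatins were followed in mouse embryonic stem cells through 6 genes, taken as every probe set annotated to Inha, Inhba, Inhbb, Fst, Fstl1 or Fstl3 alone. These were 10 of 45037 probe sets, for 6 of 18193 genes with a probe set of their own. Inhba, Inhbb, Fst and Fstl1 had 2 probe sets each, and the one with the higher mean over all arrays is called the first. Inha and Fstl3 had 1 each.

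All cells were of the mouse embryonic stem cell line E14Tg2a. Their medium, N2B27, contains no serum, and it held 20 ng/ml of BMP4 and 1000 U/ml of LIF in every group, the untreated controls included. One group had activin added at 10 ng/ml for 2 h, a second had SB431542 at 5 µM for 24 h, and the control group was untreated. SB431542 blocks the kinases of the type I receptors through which activin, Nodal and TGF-beta signal. Each group had 2 single-colour Affymetrix arrays, and the number of arrays limits the precision throughout.

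Activins are dimers of beta subunits, encoded by Inhba and Inhbb, that bind type II and type I receptors and lead to phosphorylation of Smad2 and Smad3. The alpha subunit, encoded by Inha, pairs with a beta subunit to form inhibin, which opposes activin at its receptors. Follistatin, encoded by Fst, wraps around activin and keeps it from its receptors, and Fst is known as an activin-induced gene in several cell types. Fstl3 encodes a secreted relative with the same kind of activity, while Fstl1 encodes a glycoprotein with a follistatin domain that belongs to the SPARC family.

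The deposited values are RMA intensities, and log2 of them was compared. Median intensities of the 6 arrays ran from 37 to 49. Background was described by 27 probe sets for bacterial transcripts, taken here as not added to the samples. They lay between log2 3.00 and 5.09, or intensities of 8 to 34. All 10 embryonic stem cell markers, among them Pou5f1, Nanog and Sox2, stood above that highest value on every array. Of all 45037 probe sets, 24369 had a mean above it, so lying above it does not by itself show expression. A difference was called at a limma adjusted p under 0.05 over all probe sets. Beside limma's default, called the default test, stands limma with an intensity trend and robust estimation in its variance prior, called the intensity trend, since the choice decided the calls. In bulk samples, fewer cells of a type and less RNA per cell cannot be told apart.

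The promoters of 2 members are shown for the values that follow. Fstl3 had the highest log2 difference of the 10 probe sets after activin, which neither test called. Inhbb was the activin subunit with both probe sets above background. Each line gives the 250 bases before the start of the gene, 5′ to 3′, from RefSeq in build GRCm38.p6, with a match to CAGACA or its reverse complement in capitals. CAGACA holds a core to which Smad3 and Smad4 bind. Only matches to all 6 letters are marked, so the shorter core can stand elsewhere in either window unmarked.
Fstl3, chr10:79777024-79777273, + strand: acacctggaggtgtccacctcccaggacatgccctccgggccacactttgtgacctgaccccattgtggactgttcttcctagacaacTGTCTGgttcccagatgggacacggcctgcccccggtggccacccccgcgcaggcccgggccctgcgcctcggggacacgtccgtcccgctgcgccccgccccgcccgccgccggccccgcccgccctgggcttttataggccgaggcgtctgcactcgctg
Inhbb, chr1:119422249-119422498, - strand: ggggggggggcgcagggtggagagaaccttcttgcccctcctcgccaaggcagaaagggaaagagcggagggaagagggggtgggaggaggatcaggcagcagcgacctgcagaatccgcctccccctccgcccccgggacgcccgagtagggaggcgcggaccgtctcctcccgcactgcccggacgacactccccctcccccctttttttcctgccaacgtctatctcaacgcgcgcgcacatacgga

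A promoter sequence was matched for 5 of the 6 genes, Fst being the other. Among these 5, Fstl3 alone held CAGACA on either strand, starting 162 bases before the gene's start, and 17.1% of all 32851 promoter windows of that length held it. A count of 1 in 5 is near that share over all windows. The palindrome GTCTAGAC was in none of the 5 and in 0.167% of all windows. TGTGGATT, read by FoxH1, a partner of Smad2 and Smad3, was in none of the 5 and in 0.718% of all. A match is a run of letters and does not show binding.

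Fst stood apart from the other members after SB431542, the only member whose difference passed either test, and it was over 3 times lower than in control on both of its probe sets. The first Fst probe set, 1434458_at, had intensities of 61 and 90 after SB431542, against 204 and 273 in control. The second, 1421365_at, had 48 and 41 after SB431542, against 147 and 151 in control. Neither inhibitor array reached a control value in either probe set, and every value stayed above the bacterial probe sets.

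On the log2 scale the first Fst probe set averaged 6.21 ± 0.40 after SB431542 and 7.88 ± 0.30 in control (SD, n = 2 each). Its log2 fold change was −1.67 (SE 0.26, 95% interval −2.32 to −1.03), which is 3.19-fold lower. The second averaged 5.47 ± 0.16 after SB431542 and 7.22 ± 0.03 in control, a log2 fold change of −1.75 (SE 0.15, 95% interval −2.14 to −1.36), which is 3.36-fold lower. By the default test neither Fst probe set was called, with limma adjusted p = 0.179 for the first and 0.103 for the second. With the intensity trend Fst fell in both, with limma adjusted p = 5.80e-07 and 1.98e-06. With any 1 of the 6 arrays left out, the log2 fold change ran from −1.95 to −1.39 on the first probe set. On the second it ran from −1.86 to −1.63. After SB431542 the second probe set, at 5.47, lay near the highest bacterial value of 5.09. Among the 722 probe sets that fell with the intensity trend, the Fst probe sets ranked 28 and 42 by p.

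After 2 h of activin Fst was close to its control level. The first probe set had intensities of 190 and 236 with activin, against 204 and 273 in control. The second had 124 and 149 with activin, against 147 and 151 in control. The groups overlapped in both. The log2 fold changes were −0.16 (95% interval −0.80 to 0.49) and −0.13 (95% interval −0.52 to 0.26), neither called by either test. With intervals of this width the data do not show that Fst was unchanged.

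Set directly against SB431542, activin arrays were higher in Fst by 1.52 log2 units on the first probe set (SE 0.26) and 1.62 on the second (SE 0.15). These were 2.86-fold and 3.06-fold, at durations of 2 h and 24 h. The default test called neither (limma adjusted p = 0.263 and 0.107), and the intensity trend called both (5.41e-06 and 1.42e-05). The order of the Fst means was control, then activin, then SB431542 on both probe sets. Control and activin, as neighbours in that order, did not differ beyond their spread.

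**Figure D1:**
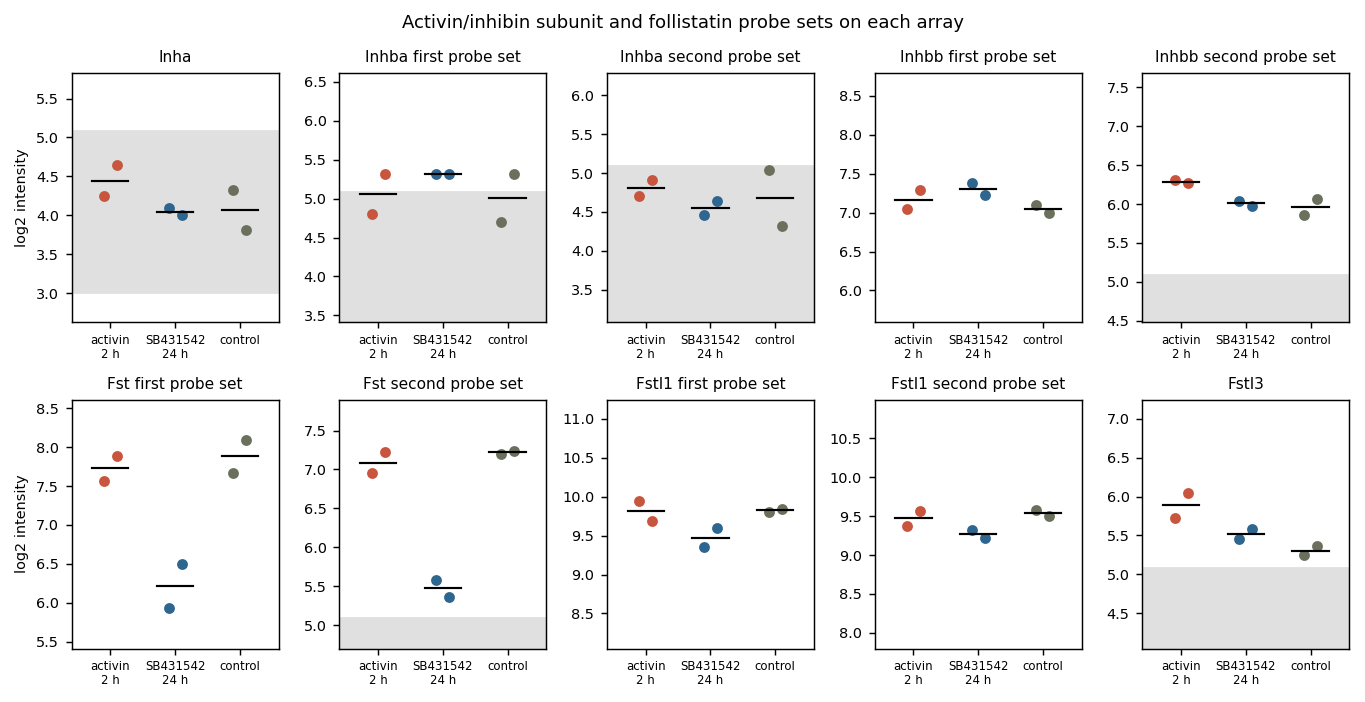
Log2 intensity (vertical axis, a span of 3.2 log2 units in every panel, each panel with its own range) of the 10 probe sets on the 2 activin, 2 SB431542 and 2 control arrays; points are arrays, black lines group means, and the grey band the 3.00 to 5.09 range of the bacterial probe sets. Both Fst panels show the SB431542 arrays below all others, while Inha and the second Inhba probe set lie inside the band on every array.

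Fstl1, the glycoprotein of the SPARC family, showed a smaller difference of the same sign after SB431542. Its first probe set, 1416221_at, had 653 and 775 after SB431542, against 892 and 921 in control. Its second, 1448259_at, had 641 and 597 after SB431542, against 763 and 727 in control. The groups did not overlap in either.

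The Fstl1 log2 fold changes after SB431542 were −0.35 (SE 0.16, 95% interval −0.74 to 0.05) and −0.27 (SE 0.13, 95% interval −0.60 to 0.06). With the intensity trend the 95% intervals, not adjusted over all probe sets, left out 0, at −0.58 to −0.12 and −0.50 to −0.04. Neither probe set was called by the default test (limma adjusted p = 0.429 and 0.456) or with the intensity trend (0.0668 and 0.199). With the intensity trend after a repeated quantile normalization the first probe set was called, at limma adjusted p = 0.0386, and without activin replicate 2 at 0.0488. With activin the first probe set had 988 and 822 and the second 666 and 755, both overlapping control. Those log2 fold changes were −0.01 (95% interval −0.40 to 0.39) and −0.07 (95% interval −0.40 to 0.26).

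Fstl3, the activin-binding relative of follistatin, had another order of groups. Its probe set, 1422803_at, had 53 and 66 with activin and 44 and 48 with SB431542, against 38 and 41 in control. Activin arrays stood above all others and SB431542 arrays above control, all of them within 1 log2 unit of the highest bacterial value. The log2 mean was 5.89 ± 0.22 with activin and 5.30 ± 0.08 in control (SD, n = 2 each). This gave a log2 fold change of 0.58 (SE 0.16, 95% interval 0.19 to 0.97), or 1.498-fold. It was not called by the default test (unadjusted p = 0.0113, limma adjusted p = 0.789) or with the intensity trend (limma adjusted p = 0.764). After SB431542 its log2 fold change was 0.22 (95% interval −0.17 to 0.61), and activin minus SB431542 was 0.36 (95% interval −0.03 to 0.75).

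Among the subunits, Inhbb, which encodes the subunit of activin B, was above the bacterial probe sets on all 6 arrays with both probe sets. The first, 1426858_at, had 132 and 156 with activin and 167 and 150 with SB431542, against 137 and 128 in control. Activin overlapped control there, and SB431542 lay above it by 0.26 log2 units (95% interval −0.11 to 0.62). The second Inhbb probe set, 1426859_at, had 79 and 77 with activin and 66 and 63 with SB431542, against 58 and 67 in control.

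On that second Inhbb probe set activin lay above control by 0.32 log2 units (SE 0.13, 95% interval −0.01 to 0.65), without overlap, and SB431542 was at 0.05 (95% interval −0.28 to 0.38). The probe sets of Inhbb thus disagreed on which treatment stood furthest from control, and neither test called any of these differences. The smallest limma adjusted p for Inhbb against control was 0.510 by the default test, for the first probe set after SB431542.

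Inhba, for the subunit of activin A, lay near the background on both probe sets. The first, 1422053_at, had 28 and 40 with activin and 40 on both SB431542 arrays, against 26 and 40 in control. It exceeded the highest bacterial value on 4 of 6 arrays, and the groups shared the value 40. The second, 1458291_at, had 26 and 30 with activin and 22 and 25 with SB431542, against 33 and 20 in control, none above the highest bacterial value. The log2 fold changes of Inhba against control ran from −0.13 to 0.31, and none was called.

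Inha, for the inhibin alpha subunit, was inside the bacterial range on every array. It had 19 and 25 with activin and 17 and 16 with SB431542, against 20 and 14 in control. Its log2 fold change was 0.38 (95% interval −0.19 to 0.95) with activin and −0.02 (95% interval −0.59 to 0.55) with SB431542. Values at this level carry no firm order.

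**Figure D2:**
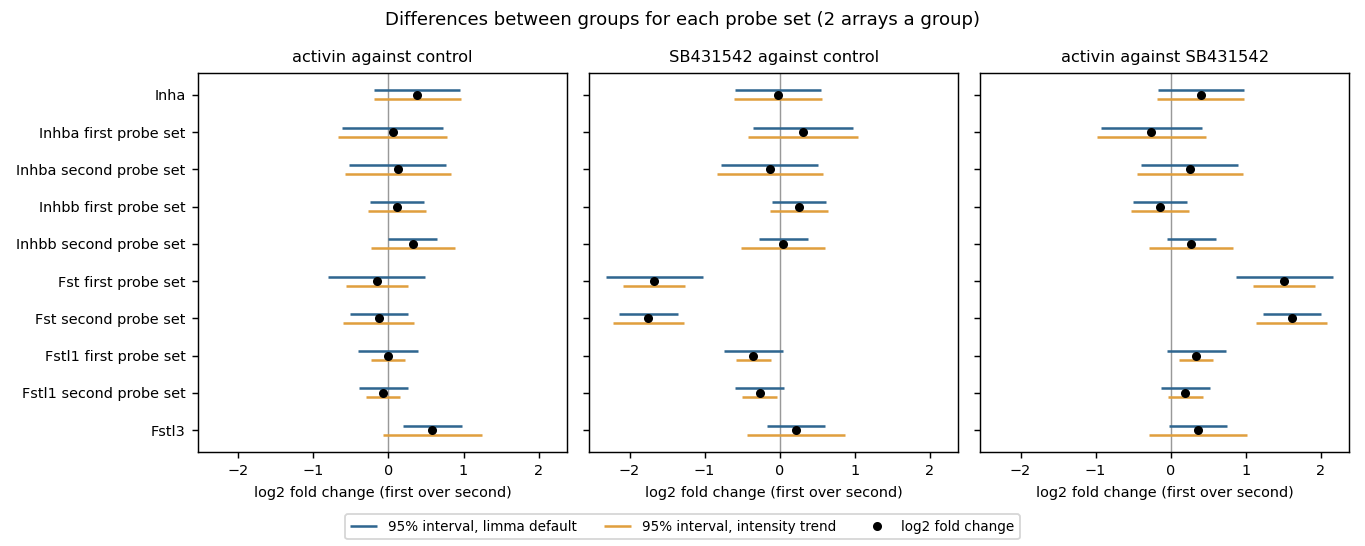
Log2 fold change of each probe set (points) in 3 comparisons, with 95% intervals from the default test (blue) and the intensity trend (yellow); the horizontal axis is the first group over the second. Only the 2 Fst probe sets have both intervals away from 0 after SB431542, and their intervals in activin against control span 0. The default interval of Fstl3 with activin also lies away from 0. So do the intensity trend intervals of both Fstl1 probe sets after SB431542, and of the first in activin against SB431542.

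Counted over the 10 probe sets, activin against control gave 0 calls by the default test, where it called 0% of all probe sets, with 1 member (Fstl3) and 6.21% of all at an unadjusted p under 0.05. With the intensity trend it also gave 0, against 0.195% of all called higher and 0.0200% lower. The groups did not overlap in 2 of the 10 probe sets, both higher with activin, the second of Inhbb and that of Fstl3. Over all probe sets 14.7% were higher without overlap and 14.5% lower, so the share among the 10 is near the background. The members' median log2 fold change was 0.08, and that of all probe sets −0.00.

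SB431542 against control gave 0 calls of 10 by the default test, against 0.0155% of all probe sets called, with the 2 Fst probe sets and 13.0% of all at an unadjusted p under 0.05. With the intensity trend 2 of 10 were called, both lower and both Fst, against 1.60% of all called lower and 3.38% higher. Without overlap 4 probe sets were lower, both of Fst and both of Fstl1, and 2 higher, the first Inhbb probe set and Fstl3. Probe sets of the same gene share their RNA, so the 4 stand for 2 genes. Over all probe sets 22.1% were lower and 20.6% higher without overlap. The median over the 5 follistatin probe sets, 4 of them of Fst and Fstl1, was −0.35. Over the 5 subunit probe sets it was 0.05, and over all probe sets −0.03.

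Activin against SB431542 gave 0 of 10 by the default test, against 0.0200% of all called. By that test 2 member probe sets, both of Fst, and 9.04% of all had an unadjusted p under 0.05. With the intensity trend 2 were called, both Fst and both higher with activin, against 0.802% of all called higher and 1.47% lower. All 5 follistatin probe sets and 3 of the 5 subunit probe sets were higher with activin without overlap, and none was lower, where 18.7% and 18.2% of all probe sets were. Probe sets of 1 gene share their RNA, and the 8 stand for 6 genes, of which Inha and Inhba were at background. For Inhba and Inhbb only the dimmer second probe set was among the 8. Their first probe sets went the other way, at log2 fold changes of −0.26 and −0.14, with overlap.

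The remaining secreted antagonists of TGF-beta family ligands were read beside the follistatins, 1 probe set a gene. Of 17 measured, 2 fell after SB431542 with the intensity trend, Lefty1 and Lefty2, which encode inhibitors of Nodal that Nodal itself induces, and 0 rose. By the same test 2.23% of all 18193 genes fell and 4.25% rose. Lefty1 had a log2 fold change of −5.53 and Lefty2 of −5.05, both called by the default test too, and their SB431542 means of 5.14 and 3.90 lay near or inside the bacterial range. The other 15 lay between −0.74 and 0.38, and neither test called any of them. The median of the 17 was −0.17, and that of all genes −0.00.

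With activin, 1 of the 17 antagonists rose with the intensity trend, where 0.137% of all genes rose and 0.0110% fell. This was Lefty2, at 1.39, while Lefty1 was at 1.42 and not called (limma adjusted p = 0.341). The default test called 0 of the 17, with limma adjusted p = 0.789 for both. The Fst log2 fold changes with activin, −0.16 and −0.13, have no settled sign: without activin replicate 1 they were 5.2e-05 and 0.00013, and without control replicate 2 the first was 0.0538. The comparisons with control share the control arrays, and the treatments also differ in duration.

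**Figure D3:**
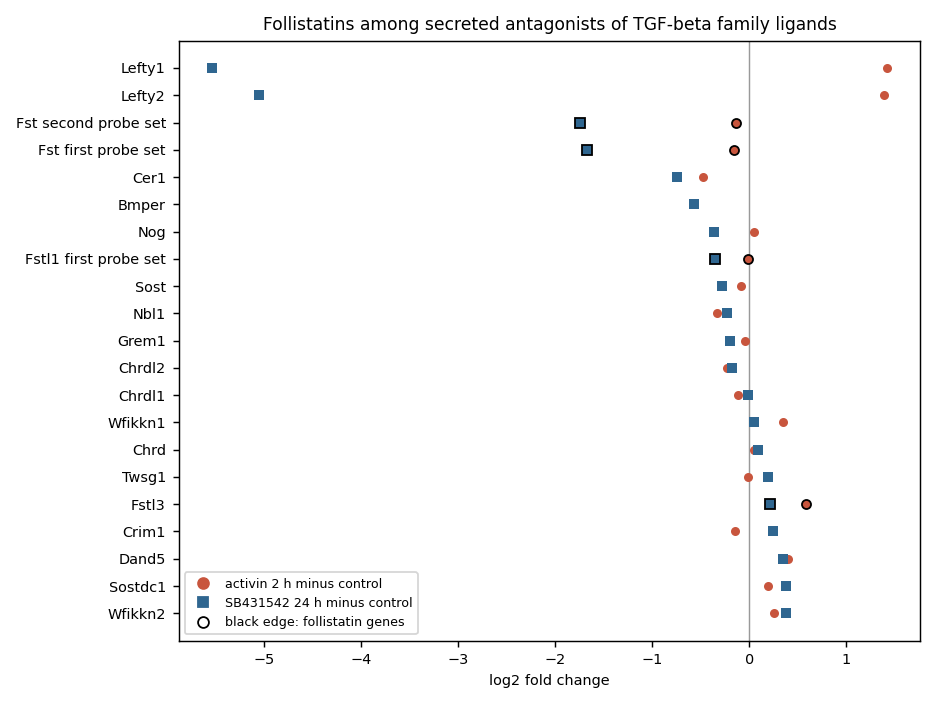
Log2 fold change against control of 17 secreted antagonists, and of both Fst probe sets, the first of Fstl1 and that of Fstl3 (black edges). Circles are activin for 2 h and squares SB431542 for 24 h, sorted by the SB431542 value. The circle of Bmper lies under its square. Lefty1, Lefty2 and both Fst probe sets have the most negative SB431542 values, and the Lefty genes lie right of 0 with activin.

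Other genes of the branch gave the setting. Of all genes, 2.23% fell and 4.25% rose after SB431542 with the intensity trend. Among 9 further ligands and cofactors, 3 fell after SB431542 with the intensity trend: Nodal at −1.10, Gdf3, a related ligand, at −0.38, and Tdgf1, the Nodal co-receptor Cripto, at −0.26. The default test called 0 of the 9, with limma adjusted p = 0.132 for Nodal, 0.341 for Gdf3 and 0.449 for Tdgf1. With activin 0 of the 9 were called by either test, and the largest differences were Tdgf1 at 0.22, Pcsk6, a convertase that processes Nodal, at −0.21, and Inhbc, for a further beta subunit, at −0.17. Of 12 receptors, co-receptors and Smads, 0 were called after either treatment by either test. The activin type I receptor gene Acvr1b was at 0.27 after SB431542, Smad3 at 0.36, and Tgfbr3, for the inhibin co-receptor betaglycan, at 0.41. With activin the type II receptor gene Acvr2a was at −0.33, and Tgfbr3 and Acvr1b were both at −0.10.

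With the intensity trend 4.25% of all genes rose and 2.23% fell after SB431542, and 0.137% rose and 0.0110% fell with activin. Of 16 other genes for proteins with follistatin domains, 1 was called after SB431542 with the intensity trend. Sparc, a matrix-binding glycoprotein of the same family as Fstl1, rose by 0.44 log2 units (limma adjusted p = 0.00152), and the default test did not call it (0.307). With activin 0 of the 16 were called by either test, with Igfbp7 at 0.28, Htra1 at 0.21 and Smoc1 at −0.19 as the largest above background. Of 13 Nodal/Activin target genes 10 fell after SB431542 with the intensity trend, a list whose direction in these arrays was known when it was drawn up. Beyond Lefty1 and Lefty2, the log2 fold changes were −2.63 for Mixl1, −2.45 for Fgf8, −2.32 for Eomes, −1.13 for Spsb1, −1.10 for Nodal, −0.99 for Pmepa1, −0.66 for Smad7 and −0.41 for Skil. Mixl1 and Eomes encode transcription factors of the primitive streak, and Pmepa1, Smad7 and Skil encode proteins that restrain Smad signalling. The Fst values of −1.67 and −1.75 lay inside this range, which is wide and covers the called genes alone. Cer1, Gsc and Foxa2, not called, were at −0.74, −0.02 and −0.06, none above the bacterial probe sets on every array. After SB431542 the means of Fgf8, Mixl1 and Eomes, at 4.22, 5.44 and 5.55, lay inside or near the bacterial range. The default test called 3 of the 13, Lefty1, Lefty2 and Eomes. With activin 3 of the 13 rose with the intensity trend, Lefty2 by 1.39, Spsb1 by 0.88 and Pmepa1 by 0.70, and 0 were called by the default test.

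Markers of other cells were measured beside the Fst difference. Each list was summed on the linear scale, where its brightest gene weighs most, so a sum need not stand for the whole list. By mean log2 over 6 arrays the brightest fibroblast marker was Acta2 (9.05) and the brightest trophoblast marker Tfap2c (10.69). For endoderm it was Lamb1 (10.42), and for embryonic stem cells Dppa5a (14.01). Over all genes, 4.25% rose and 2.23% fell after SB431542 with the intensity trend. The summed intensity of 9 fibroblast markers was 1033 and 1068 with activin and 654 and 816 after SB431542, against 957 and 872 in control. Of the 9, Col1a1 fell with the intensity trend, by 0.98 log2 units, but not by the default test (limma adjusted p = 0.226), and Col3a1, Lum, Dcn and Postn were not above the bacterial probe sets on every array. Trophoblast markers summed to 2505 and 2797 with activin and 4817 and 4347 after SB431542, against 2679 and 2789 in control, and with the intensity trend 6 of 10 rose and 1 fell after SB431542. Those that rose were Ascl2, Gata3, Esx1, Hand1, Tfap2c and Plac1, by 0.77 to 2.03 log2 units, and Eomes fell. Gata3 was not above the bacterial probe sets on every array. The default test called 2 of these, Ascl2 and Eomes. Embryonic stem cell markers summed to 55860 and 55369 with activin and 47998 and 48785 after SB431542, against 55614 and 54474 in control, and with the intensity trend 6 of 10 fell and 1 rose. Pou5f1, Tfcp2l1, Utf1, Dppa5a, Tdgf1 and Nanog fell by 0.24 to 0.43 log2 units, and Klf4 rose by 0.50. The default test called 0 of these 10. Primitive and parietal endoderm markers summed to 2387 and 2371 with activin and 2684 on both SB431542 arrays, against 2423 and 2298 in control. Of these 10, Col4a1 rose with the intensity trend but not by the default test (limma adjusted p = 0.311). Gata4, Gata6, Sox7, Sox17, Pdgfra and Thbd were not above the bacterial probe sets on every array. The part of any of these in the Fst difference was not tested.

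Granulosa and Sertoli cells are the classic sources of inhibin. Of 9 of their markers, 0 were called after either treatment by either test, and 3 stood above the bacterial probe sets on all arrays, as Inha did not.

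Genes with values most like a member's were sought by the root mean square difference of the 6 log2 values, each probe set centred on its own mean. For the first Fst probe set these were Psmb10, an immunoproteasome subunit gene, at 0.208, Igfbp3, for a binding protein of insulin-like growth factors, at 0.2097, and Nphs1, for nephrin, at 0.232. Fst's own second probe set was at 0.257. The log2 fold changes after SB431542 were −1.64 for Psmb10, −1.65 for Igfbp3 and −1.34 for Nphs1, and with activin they were −0.09, −0.25 and −0.19.

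**Figure D4:**
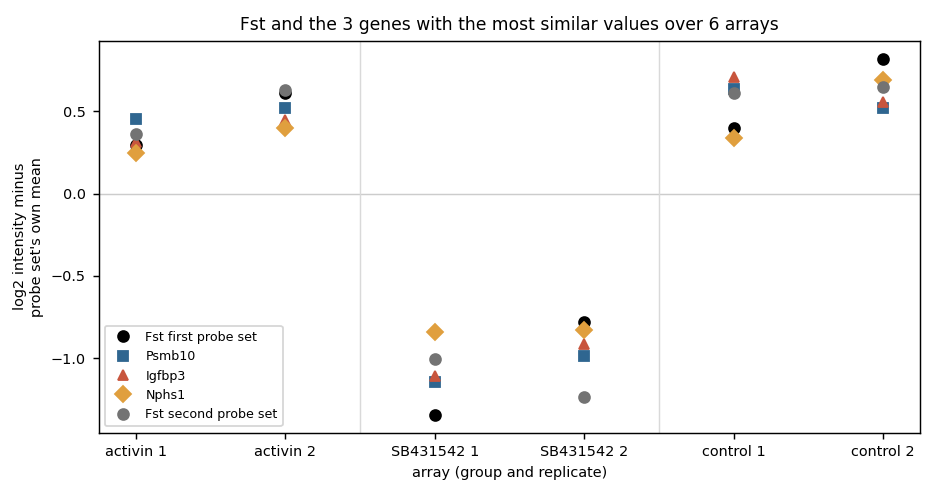
Log2 intensity minus the probe set's own mean over 6 arrays (vertical axis) for both Fst probe sets, Psmb10, Igfbp3 and Nphs1 on each array. All 5 lie below 0 on both SB431542 arrays and above 0 on the 4 other arrays.

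Nearest to Fstl1 were Apobec3 at 0.0332, Pidd1 at 0.0384 and Ankmy2 at 0.0452, with its own second probe set at 0.177. Nearest to Fstl3 were Ric8a at 0.0576, Acsm2 at 0.0659 and Mapk8 at 0.0760. Nearest to the first Inhba probe set were Pdlim5, Akap10 and Ttyh3, at 0.0664 to 0.0844, against 0.461 for Inhba's second probe set, which thus did not follow the first. Inhbb and Inha were left out by the limits set on variation and on brightness. These distances are over 6 arrays and 21599 probe sets, and small ones arise among so many.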

How the data were processed

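RMA intensities of 45101 probe sets on 6 arrays were analysed. Per the submitters' processing notes the authors used RMA; the deposited intensity values are whole numbers on a linear scale from 6 to 26405, while the software, its version and the set of arrays normalized together were not given in the sources used here. The design text names the A version of the array, and the table holds the probe sets of the larger version.

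Log2 of each intensity was taken with no further scaling, and 64 Affymetrix control probe sets were left out. One linear model over the 6 arrays, with a mean for each group, was fitted with limma 3.58.1 under R 4.3.3, and Benjamini-Hochberg adjustment took in all 45037 probe sets. The intensity trend used eBayes with trend and robust estimation. The code was run on simulated data with known differences placed in probe sets brighter than those of Fst. That run does not test whether the calls for Fst are sound. Gene names came from the platform annotation, with 34945 probe sets of 1 symbol, 932 of several and 9160 of none, and the 6 members matched RefSeq by gene ID.

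Groups came from the sample titles, and the spelling SB432542 in some labels was read as SB431542. Whether duplicates were separate cultures is not stated in the labels; p-values then reflect array-to-array spread alone, which may be technical. No vehicle or scan batch is stated. For each gene list the brightest probe set stood for a gene, and 115 of 123 entries were measured. In each pathway list and comparison with control, genes called by either test were named, or else the 3 with the largest log2 fold change whose mean lay above the highest bacterial value. In marker lists only called genes are given with values. For similar patterns, members had to exceed the highest bacterial value and the median SD of 0.189, and 3 genes were named. The members and lists were chosen with earlier results of these data known.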

Additional observations from a re-analysis of the deposited data

How the results depend on the processing

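Counts of calls depended on the variance prior and scaling. For SB431542 against control the default test called 7 probe sets, and 2242 with the intensity trend, 40 with quantile normalization repeated, 791 with columns shifted to 1 median, 41 with 16 added to each intensity, 21 without the dimmest 40%, 0 with the replicate block and 0 without any 1 array. For activin against SB431542 the 9 became 1024, 49, 412, 64, 30, 1 and 0 in that order, and for activin against control the 0 became 97 with the intensity trend and 78 with columns shifted. Member calls, 0 by default, were 2 with the intensity trend or columns shifted and 1 with quantile normalization or 16 added in SB431542 against control and in activin against SB431542, all of them Fst. Under the intensity trend, in settings chosen after seeing the data, leaving out 1 array gave 21 to 201 calls (activin against control; 21 and 201 without activin replicates 2 and 1, and 158 without control replicate 1), 947 to 2560 (SB431542 against control; 947 and 1217 without its replicates 1 and 2) and 402 to 1493 (activin against SB431542; 402 and 517 without those arrays and 564 without activin replicate 1), and columns shifted gave 37, 873 and 500. The replicate block then gave 157 in activin against control. Same-numbered arrays deviated with correlations of −0.14, 0.02 and −0.09. The medians of the arrays differed too, so these values cannot show whether same-numbered arrays shared a culture or batch. With the intensity trend members called after SB431542 were 2 to 3 without 1 array, the extra one being Fstl1 without activin replicate 2.

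The Fst log2 fold change after SB431542 kept its sign in all alternatives, from −1.95 to −1.39 on the first probe set and −1.86 to −1.45 on the second. Signs turned only among differences that no setting called. In activin against control, Inhba's first probe set (0.05) was −0.0335 with quantile normalization and −0.0114 with columns shifted, and Fstl1's first was 0.000256 with quantile normalization. After SB431542, Inha (−0.02) was 0.0830 with quantile normalization. Leaving out 1 array gave, with activin, −0.26 to 0.36 for Inhba's first probe set, −0.24 to 0.48 for its second, −0.0046 to 0.24 for Inhbb's first, −0.37 to 0.0538 and −0.26 to 0.00013 for Fst's first and second, and −0.14 to 0.12 and −0.16 to 0.0197 for Fstl1's. After SB431542 it gave −0.28 to 0.24 for Inha, −0.49 to 0.23 for Inhba's second and −0.0553 to 0.15 for Inhbb's second. The cause was not tested. The number of arrays and the background of dim probe sets limit what can be shown.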
